A study of Homo sapiens with 4 samples.

Results

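The regions described here are the SS18::SSX peaks of DMSO-treated HSSY II cells that were still called after MS67. In CUT&RUN, an antibody brings a nuclease to the protein of interest, and the DNA fragments cut free beside it are sequenced. HSSY II is a synovial sarcoma (SS) line that carries the SS18::SSX1 fusion, and MS67 is a PROTAC, a molecule that brings its target, here WDR5, to a ubiquitin ligase for degradation. Treatment lasted 4 days, with DMSO for the control cells and MS67 at 2.5 μM for the others, and SS18::SSX and WDR5 were each profiled once per treatment, in cells mixed with NIH-3T3 mouse fibroblasts as the spike-in. The kept peaks were chosen by their overlap between the SS18::SSX lists, and a DMSO peak was counted as kept if it overlapped a peak of the SS18::SSX MS67 list by 1 bp or more, and as lost if it did not. Of 15141 DMSO peaks, 879 were kept (5.81%, 95% CI 5.44 to 6.19) and 14262 were lost. The kept peaks were overlapped by 859 of the 1175 MS67 peaks. All 4 lists together held 66044 peaks.

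With 1 library per condition there was no replicate check, so no p-value was computed. Every interval (exact Clopper-Pearson for a share) covers counting error only, and treats each peak as a separate draw. Many peaks lie close together and are not separate in this sense, so the intervals are likely too narrow. Where a count is 0, the upper limit given is in place of the interval, and is that of 3 counts over the total. Both SS18::SSX lists chose the kept peaks, and their peak heights, widths, q-values, and backgrounds are therefore given as a description. Position, sequence, annotation, and the WDR5 libraries were not used in the choice. Genome-wide coverage, recovered from the fold and p-value of the peaks, was 0.541 fragments per bp for SS18::SSX with DMSO, 0.737 for SS18::SSX with MS67, 0.368 for WDR5 with DMSO, and 0.168 for WDR5 with MS67. The MS67 library of SS18::SSX was thus the deeper one of its pair. The deposited lists carry no spike-in scaling, so a value over coverage compares a peak with the rest of its own library and says nothing about the total amount of bound protein.

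As background, SS18::SSX joins the SWI/SNF (BAF) chromatin remodeler as a subunit and takes it to sites that Polycomb complexes otherwise keep silent, many of them at developmental genes. WDR5 is a scaffold of the KMT2/MLL complexes, which methylate histone H3 at lysine 4, and it is found at the promoters of many active genes. Genes such as *MNX1*, *SIM2*, and *SOX8* are named by the study as targets of the fusion.

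Sequences are shown for kept peaks that lead the lists by q-value, for the kept peak of highest q-value next to *NFATC1*, a gene in a dense stretch of kept peaks, and for lost peaks that were among the strongest of the DMSO library. Each is the hg38 sequence of the plus strand within 100 bp of the DMSO summit, free of annotated exons, and capitals mark CG dinucleotides. The kept peaks in an intron of *NFATC1* (chr18:79526026-79526225), in an intron of the long noncoding RNA gene ENSG00000234210 (chr7:157469861-157470060), and upstream of *ZFP37* (chr9:113061162-113061361) are rich in G and C and hold 15, 8, and 5 CG pairs.
*NFATC1*, kept: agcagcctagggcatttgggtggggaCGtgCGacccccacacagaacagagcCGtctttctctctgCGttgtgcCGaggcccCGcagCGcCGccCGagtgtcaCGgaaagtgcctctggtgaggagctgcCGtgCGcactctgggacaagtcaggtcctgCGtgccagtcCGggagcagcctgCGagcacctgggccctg
ENSG00000234210, kept: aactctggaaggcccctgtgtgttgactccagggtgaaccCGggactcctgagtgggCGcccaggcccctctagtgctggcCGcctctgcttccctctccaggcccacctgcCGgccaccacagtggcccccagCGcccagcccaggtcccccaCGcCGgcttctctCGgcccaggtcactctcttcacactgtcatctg
*ZFP37*, kept: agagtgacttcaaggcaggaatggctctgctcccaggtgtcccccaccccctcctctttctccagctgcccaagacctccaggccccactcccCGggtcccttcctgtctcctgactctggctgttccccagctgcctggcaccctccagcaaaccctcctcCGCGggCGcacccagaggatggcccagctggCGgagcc
The kept peak in an intron of ENSG00000283360 (chr1:161459920-161460119) and the one that lies in the centromeric satellite sequence that hg38 carries for chromosome 17 (chr17:24813779-24813978) are lower in G and C.
ENSG00000283360, kept: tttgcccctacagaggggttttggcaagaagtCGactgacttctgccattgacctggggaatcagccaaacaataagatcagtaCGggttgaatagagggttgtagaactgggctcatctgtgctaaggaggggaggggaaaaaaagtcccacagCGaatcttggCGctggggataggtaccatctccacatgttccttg
Chromosome 17 satellite, kept: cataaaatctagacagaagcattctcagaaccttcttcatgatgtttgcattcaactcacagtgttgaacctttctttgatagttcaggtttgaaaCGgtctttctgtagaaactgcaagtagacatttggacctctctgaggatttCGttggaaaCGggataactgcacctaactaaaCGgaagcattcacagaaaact
The lost peaks at the *TPSAB1* promoter (chr16:1239833-1240032) and further upstream of *ZFP37* (chr9:113062965-113063164) are given for comparison. The *TPSAB1* stretch repeats the same short words several times.
*TPSAB1*, lost: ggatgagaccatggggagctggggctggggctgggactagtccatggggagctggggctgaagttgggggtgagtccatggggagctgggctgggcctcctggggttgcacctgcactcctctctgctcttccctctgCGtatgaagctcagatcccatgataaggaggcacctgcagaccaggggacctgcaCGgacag
*ZFP37*, lost: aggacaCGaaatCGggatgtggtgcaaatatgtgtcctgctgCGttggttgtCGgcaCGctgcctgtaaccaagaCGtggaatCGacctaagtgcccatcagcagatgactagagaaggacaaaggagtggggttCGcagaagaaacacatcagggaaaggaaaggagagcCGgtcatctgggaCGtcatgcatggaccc

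The kept peaks were the strong and wide ones of the DMSO list. Their median width was 550 bp (quartiles 324 and 906), against 209 bp for the lost peaks (161 and 322). The fragments at the DMSO summit ranged from 5 to 194 with a median of 36, against a range of 5 to 186 and a median of 16 in the lost peaks. The median −log10 q was 7.24 in the kept peaks and 3.56 in the lost peaks, whereas the median fold over the local background was similar, at 3.81 and 4.00. A kept peak thus stood out from the lost ones by its fragments and its width, not by its fold. Of the 42 peaks with −log10 q of 20 or more, 30 were kept (71.4%, 95% CI 55.4 to 84.3). Of the 5128 peaks with −log10 q under 3, 59 were kept (1.15%, 95% CI 0.877 to 1.48).

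How far a kept peak was covered by MS67 peaks varied. The overlap had a median of 266 bp (quartiles 171 and 389), and 440 kept peaks (50.1%) were covered over at least 50% of their length. At the edge of the rule, 9 kept peaks overlapped by 10 bp or less, and 5 lost peaks had an MS67 peak 10 bp or less away. The smallest overlap was 1 bp, at *BRSK2* (chr11:1449163-1449453, 38 fragments with DMSO and 34 with MS67) and near ENSG00000236173 (chr6:169830797-169831756, 25 and 30 fragments). The nearest lost peaks touched an MS67 peak with a gap of 0 bp, 1 of them at the promoter of *LINC01990* (chr3:107430188-107430338, 13 fragments with DMSO). For the peaks within 10 bp of the line, a shift of an edge by a few bp could have moved them across the line. In all, 687 lost peaks (4.82%) had an MS67 peak within 1 kb.

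At the 879 kept peaks, MS67 summits had 7 to 172 fragments with a median of 33. Divided by the coverage of each library, the MS67 summit was at a median of 0.705 times the DMSO summit (quartiles 0.576 and 0.848). The MS67 value was above the DMSO value at 115 kept peaks (13.1%). The local background changed less, to a median of 0.850 times its DMSO value (quartiles 0.700 and 1.07). Most kept peaks were therefore kept at a lower relative height. At kept peaks within 5 Mb of a chromosome end the median height ratio was 0.662, and at the other kept peaks it was 0.797. The corresponding ratios of the background were 0.802 and 1.02.

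**Figure D1:**
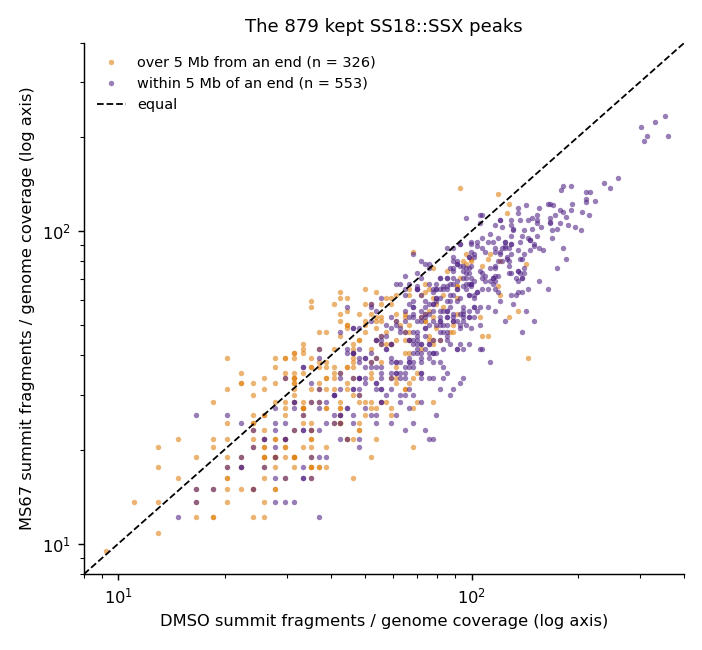
Each point is 1 of the 879 kept peaks, with the DMSO summit fragments over genome coverage on the horizontal axis and the MS67 summit fragments over genome coverage on the vertical axis, both on log axes. Color separates the 553 peaks within 5 Mb of a chromosome end from the 326 others, and 115 peaks lie above the dashed line of equal values.

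The 10 kept peaks of highest DMSO −log10 q (69.1 down to 24.4) held 38 to 117 fragments at the DMSO summit. The first lay 13696 bp from the start site of *NPIPA7* (chr16:16365186-16365702), a member of a family of near-identical genes to whose copies reads can align ambiguously. It had 78 fragments with DMSO and 29 with MS67, and its height ratio of 0.273 was the lowest of all kept peaks. The second, in an intron of ENSG00000283360 (chr1:161459899-161460169), had 38 and 26 fragments, and its background was close to the genome-wide level, at 1.26 times coverage with DMSO and 1.04 times with MS67. The kept peak upstream of *ZFP37* (chr9:113061125-113061618), a zinc finger gene, had 43 and 36 fragments, while a neighboring peak of 37 fragments (chr9:113062994-113063194) was lost. The kept peak at the promoter of *TPSB2*, a mast cell tryptase gene, had 41 and 16 fragments (chr16:1230488-1231013). The peak at the promoter of the neighboring tryptase gene *TPSAB1* (chr16:1239781-1240075, 39 fragments) had the highest −log10 q of all lost peaks, 31.3. The peaks near *NPIPA7*, ENSG00000283360, and *ZFP37* were the only ones of these 10 farther than 5 Mb from a chromosome end. The others included the one in *MGMT*, which encodes a DNA repair protein, with 75 and 35 fragments (chr10:129520282-129521929), and the one in *KNDC1*, with 75 and 52 (chr10:133218886-133219958). In the 1000 bp about the *MGMT* summit, 29.4% of the 12-mers occurred more than once. At *TPSB2* it was 12.5% and at ENSG00000234210 10.9%, against 2.93% at the lost *TPSAB1* peak. Whether reads align to more than 1 place at these peaks was not tested.

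Ranked by MS67 instead, the kept peaks that led were partly others. The MS67 peak of highest −log10 q that overlapped a kept peak, 25.2, was the one in the chromosome 17 satellite (chr17:24813063-24814372). It had 12 fragments with DMSO and 26 with MS67, and 20.8% of the 12-mers in the 1000 bp about its summit occurred more than once there. The peak 66773 bp from *RNF187* (chr1:228554272-228555717) went from 23 to 45 fragments, next to an annotated 5S ribosomal RNA pseudogene, and had 16.5% repeated 12-mers. An intronic peak of *PARD3*, a cell polarity gene, had 50 fragments with DMSO and 101 with MS67 (chr10:34315482-34315673), with a background of 30.2 and 49.7 times coverage. These 3 peaks had height ratios of 1.59, 1.44, and 1.48, so all 3 were higher over coverage with MS67. In 2 of the 3 the sequence is repetitive, so reads may align to more than 1 place, and the part of this in their height was not tested. The 3 were named out of the 10 kept peaks that led by MS67. The other ones had height ratios of 0.273, 0.502, 0.585, 0.614, 0.646, 0.786, and 1.19, so most of them were lower with MS67.

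The kept peaks lay toward the ends of the chromosomes, which the rule did not use. Of the 879 kept peaks, 553 were within 5 Mb of a chromosome end (62.9%, 95% CI 59.6 to 66.1), against 4843 of the lost peaks (34.0%, 95% CI 33.2 to 34.7) and 35.6% of all DMSO peaks. The difference was 29.0 percentage points (95% CI 25.6 to 32.3). The median distance from the nearer end was 2190936 bp for the kept and 17736800 bp for the lost peaks. The share kept was 12.7% in the outermost 1 Mb (183 of 1438 peaks), 11.8% from 1 to 2 Mb (246 of 2086), 6.62% from 2 to 5 Mb (124 of 1872), 4.46% from 5 to 10 Mb, and 2.72% beyond 50 Mb. Beyond 5 Mb, 326 of 9745 peaks were kept (3.35%, 95% CI 3.0 to 3.72).

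Part of this difference went with peak strength. When the lost peaks were weighted to the −log10 q deciles of the kept peaks, 40.5% of them were within 5 Mb of an end, and when weighted to the width deciles, 48.3%. The difference was then 22.4 and 14.6 points, so the kept peaks were nearer to the ends than lost peaks of like q-value or width as well. None of the 8 peaks on chromosome Y was kept, too few for a share to be compared. On the other chromosomes, the share kept ran from 0.538% on chromosome X (1 of 186) and 3.21% on chromosomes 14 and 19 to 8.33% on chromosome 10 (101 of 1212), 8.38% on chromosome 7 (110 of 1312), and 10.9% on chromosome 20 (75 of 689). The chromosome X peak lay at the promoter of *HTR2C*, a serotonin receptor gene, with 41 fragments in both libraries (chrX:114582647-114583633).

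**Figure D2:**
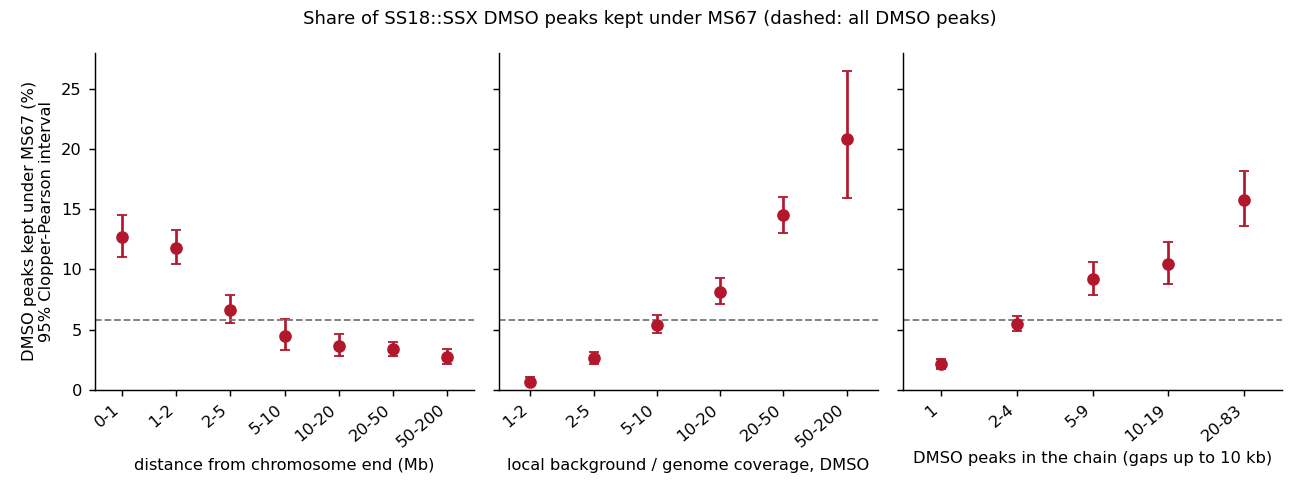
The share of SS18::SSX DMSO peaks kept under MS67, in percent with 95% Clopper-Pearson intervals, is plotted by distance from the chromosome end, by local background over genome coverage, and by the number of DMSO peaks in a chain with gaps of up to 10 kb. The share runs from 12.7% in the outermost 1 Mb to 2.72% beyond 50 Mb, from 0.662% at the lowest to 20.9% at the highest background, and from 2.11% for single peaks to 15.8% in the longest chains, around 5.81% for all peaks (dashed).

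The local background, that is the fragments MACS2 took as the expectation around the summit, was higher at the kept peaks. Its median was 15.1 times genome coverage in the DMSO library (quartiles 7.09 and 28.3), against 5.43 times at the lost peaks (2.45 and 12.4), a ratio of medians of 2.78 (95% CI 2.54 to 3.12). Because this background is averaged over up to 10 kb, neighboring peaks of the same domain add to it. It is also solved from the fragments and the fold of the same DMSO peaks. With a similar fold in both classes, more fragments at the kept peaks imply a higher background. The background was not compared at like q-value or width. The share kept was 0.662% (18 of 2717) where the background was under 2 times coverage, 5.41% from 5 to 10 times, 14.5% from 20 to 50 times (320 of 2207), and 20.9% (51 of 244) from 50 times up. Only 5 kept peaks (0.569%) had a background at the genome-wide level, against 371 lost peaks (2.60%).

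The background and the chromosome ends went together, and the background differed on both sides of the 5-Mb line. Within 5 Mb of an end the median was 23.5 times coverage for kept and 14.3 times for lost peaks (ratio 1.65, 95% CI 1.53 to 1.79). Farther inside it was 7.31 and 3.89 times (ratio 1.88, 95% CI 1.73 to 2.04). The ratio was thus smaller within each zone than over all peaks.

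**Figure D3:**
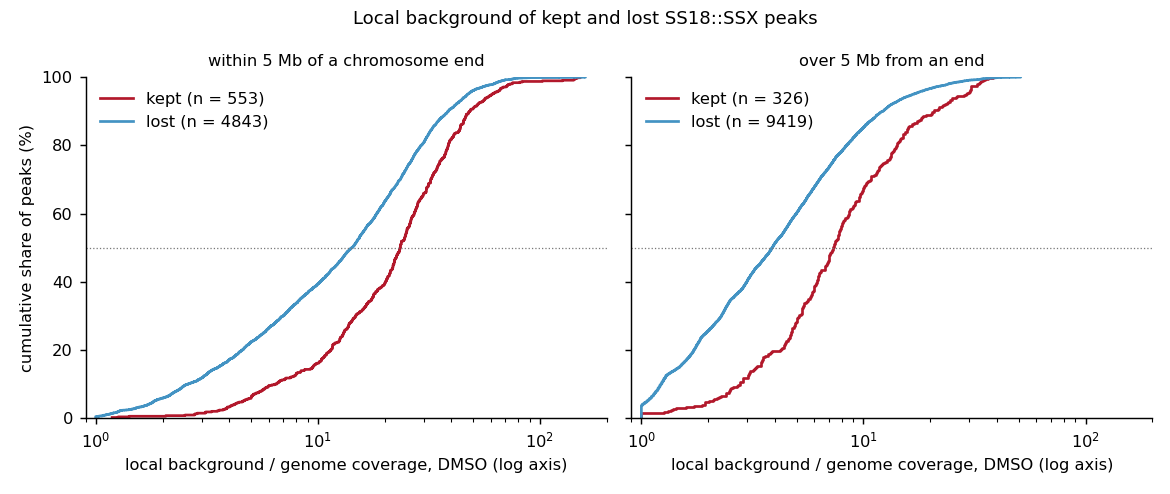
Cumulative share of peaks, in percent, by local background over genome coverage in the DMSO library (log axis), for kept and lost SS18::SSX peaks within 5 Mb of a chromosome end and over 5 Mb from one. The kept curve is to the right of the lost curve in both panels, with medians of 23.5 against 14.3 near the ends and 7.31 against 3.89 elsewhere.

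The WDR5 DMSO library, which had no part in choosing the peaks, gave a second measure of the background. Of 2648 bins of 1 Mb that held a WDR5 DMSO peak, the 100 with the highest median WDR5 background held 284 kept peaks (32.3%, 95% CI 29.2 to 35.5) and 2151 lost peaks (15.1%, 95% CI 14.5 to 15.7), with 16.1% of all DMSO peaks. The difference was 17.2 points (95% CI 14.1 to 20.5), and 10.7 points against lost peaks weighted to the same −log10 q deciles. In these bins 14.0% of the peaks within 5 Mb of a chromosome end were kept (248 of 1767), and 5.39% of those farther inside (36 of 668). In the other bins the shares were 8.40% (305 of 3629) and 3.19% (290 of 9077). The share kept was therefore higher near the ends both inside and outside the raised bins.

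Kept peaks were grouped along the chromosome. Another SS18::SSX DMSO peak lay within 10 kb of 761 kept peaks (86.6%, 95% CI 84.1 to 88.8) and of 8775 lost peaks (61.5%, 95% CI 60.7 to 62.3). The median gap to the nearest DMSO peak was 522 bp for kept and 2894 bp for lost peaks. Another kept peak lay within 100 kb of 65.4% of the kept peaks and of 31.1% of the lost peaks. This measure uses the kept status itself. Moreover, 49 MS67 peaks overlapped more than 1 DMSO peak, which gives each of those DMSO peaks a kept neighbor by the rule. When DMSO peaks with gaps of up to 10 kb were joined into chains, 118 of 5605 single peaks were kept (2.11%), 169 of the 1839 peaks in chains of 5 to 9 (9.19%), and 166 of the 1050 peaks in the 33 chains of 20 to 83 (15.8%, 95% CI 13.7 to 18.2). Dense stretches of SS18::SSX peaks thus held more than their share of kept peaks, but most peaks in them were lost too.

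A few stretches held a large part of the kept peaks. Kept peaks occurred in 323 of the 2131 bins of 1 Mb that held a DMSO peak, and the 5 bins with most held 150 of them (17.1%). Among these 5 were the chromosome 10 bin that begins at 132000001 with 31 of 171 peaks kept, the chromosome 18 bin at 79000001 with 28 of 138, and the chromosome 7 bins at 1 with 28 of 142 and at 157000001 with 27 of 122. All 5 lie within 5 Mb of a chromosome end, where 10.2% of the DMSO peaks were kept, against 5.81% of all DMSO peaks. These bins were picked for their number of kept peaks. The strongest kept peaks of the 4 bins named were nearest to *JAKMIP3*, ENSG00000286296, *CYP2W1*, and ENSG00000234210.

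The genes nearest to many kept peaks included long noncoding and protein-coding genes. They were picked for their number of kept peaks, and 5.81% of all DMSO peaks were kept. The long noncoding RNA genes ENSG00000261710 and ENSG00000231515 had 9 of 59 and 8 of 33 nearest DMSO peaks kept, *NFATC1*, which encodes a transcription factor of the calcineurin pathway, had 8 of 51, and *CFAP46*, a cilium gene, had 7 of 37. *GALNT9*, which encodes a glycosyltransferase, *INPP5A*, which encodes an inositol phosphatase, and ENSG00000250385 each had 6, of 28, 39, and 17 peaks. ENSG00000272839 (7 of 13) and *PRKAR1B-AS2* (6 of 14) were genes with few peaks. Among chains, the one at *NFATC1* (chr18:79380384-79532795) had 12 of 70 peaks kept (17.1%), the one at *ADGRA1-AS1* (chr10:132972208-133105965) 11 of 60 (18.3%), and the one at *PRKAR1B-AS2* (chr7:511512-573733) 9 of 25 (36.0%). The longest chain by peaks, at ENSG00000260496 (chr16:971533-1159871), had 10 of 83 kept (12.05%). Over all chains of 20 to 83 peaks the share kept was 15.8%, and of the chains named only that at *PRKAR1B-AS2* was far above it.

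Around *NFATC1* (chr18:79395856-79529325, plus strand, with 20 kb on each side) all 4 libraries had peaks. The stretch was chosen after its values were seen. The SS18::SSX DMSO list held 74 peaks there, of which 15 were kept, with 28 to 101 fragments at the summit and a median of 57. The SS18::SSX MS67 list held 14, with 48 to 83 fragments and a median of 65.5. Over coverage, the median summit of the called peaks was 105 times with DMSO and 88.9 times with MS67, and the median background 38.9 and 39.2 times. WDR5 had 19 peaks with DMSO (11 to 35 fragments) and 5 with MS67 (9 to 17), with a median background of 9.48 and 10.2 times coverage. The whole domain thus lay on a background far above the genome-wide level in each library, and that background over coverage was close in the treated and untreated library. Within the domain, kept peaks had a median of 58 fragments with DMSO (37 to 101) and lost peaks of 55 (28 to 92). Their backgrounds overlapped, from 22.0 to 58.3 times coverage in the kept and from 17.5 to 69.8 in the lost peaks. Kept and lost peaks were therefore close in height here, unlike over the whole list. Their median −log10 q still differed, at 6.37 in the kept and 4.89 in the lost peaks. The kept peak in an intron near the 3′ end of the gene (chr18:79525621-79526521) had 96 fragments with DMSO and 78 with MS67, a height ratio of 0.596, and WDR5 peaks in both WDR5 libraries. Other kept peaks were as high or higher over coverage with MS67, such as the intronic ones at chr18:79413186-79413606, with 37 and 62 fragments (ratio 1.23), and at chr18:79423821-79424862, with 57 and 83 (ratio 1.07). Of the 8 kept peaks nearest to *NFATC1*, the first of these 3 was the only one with a WDR5 peak. Other kept peaks of the stretch lay nearest to other genes. Among them, the one 64961 to 65551 bp from the *NFATC1* start overlapped a WDR5 MS67 peak. The one at chr18:79547376-79548544 overlapped a WDR5 DMSO peak.

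**Figure D4:**
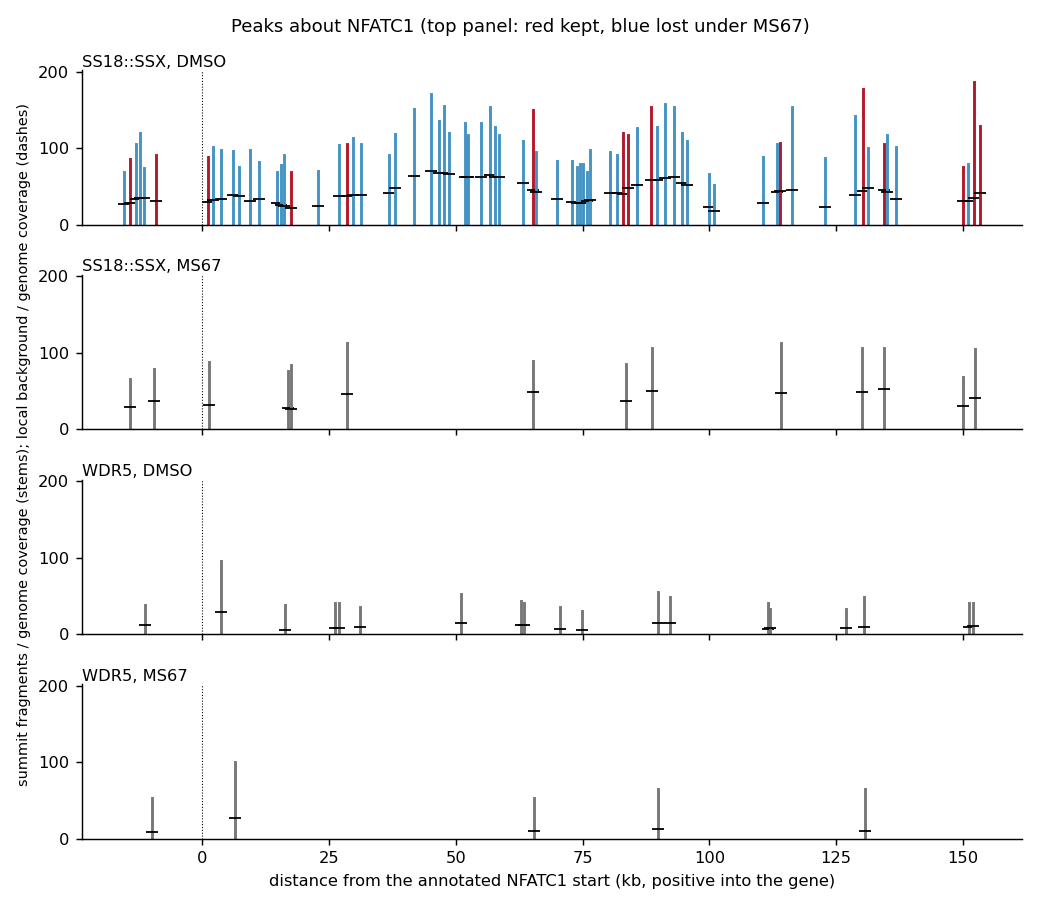
Peaks of the 4 libraries around *NFATC1*, by distance from its annotated start in kb, with stems for summit fragments and dashes for local background, both over genome coverage. In the top panel the 15 kept peaks are red and the 59 lost peaks blue, spread among each other along the gene, and 14 SS18::SSX peaks remain with MS67.

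WDR5 peaks were more frequent at kept than at lost SS18::SSX sites. A WDR5 DMSO peak overlapped 405 kept peaks (46.1%, 95% CI 42.7 to 49.4) and 4693 lost peaks (32.9%, 95% CI 32.1 to 33.7), with 33.7% of all DMSO peaks. The difference was 13.2 points (95% CI 9.75 to 16.6). Against lost peaks weighted by −log10 q decile it was 9.42 points, by width decile 4.91 points, and when the SS18::SSX summit had to lie inside the WDR5 peak 5.26 points (95% CI 2.14 to 8.50). Wide peaks have more chances to touch another peak, and the part of width in the difference was not tested. Under other settings the difference was larger than 13.2 points. These were the study's limits on −log10 q and fold, merged peaks, and peaks over 5 Mb from a chromosome end. Away from promoters, 317 of 3378 SS18::SSX peaks with WDR5 were kept (9.38%), against 412 of 8177 without (5.04%). At promoters the shares were 5.12% (88 of 1720) and 3.32% (62 of 1866).

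A WDR5 peak of the MS67 library overlapped 137 kept peaks (15.6%, 95% CI 13.2 to 18.2) and 1565 lost peaks (11.0%, 95% CI 10.5 to 11.5), with 11.2% of all. This difference of 4.61 points (95% CI 2.22 to 7.23) was 1.85 points by width decile and turned to −1.16 points (95% CI −2.72 to 0.683) when the summit had to lie inside the WDR5 peak, so no excess of remaining WDR5 at the kept summits was detectable. Of the kept sites with a WDR5 DMSO peak, 120 of 405 still had a WDR5 MS67 peak at that WDR5 peak (29.6%, 95% CI 25.2 to 34.3). Of the lost sites, it was 1579 of 4693 (33.6%, 95% CI 32.3 to 35.0), and the interval of the difference, −8.63 to 0.882 points, holds 0. The WDR5 background at these shared sites was 10.7 times coverage at kept and 7.30 times at lost sites (ratio 1.46, 95% CI 1.39 to 1.66).

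**Figure D5:**
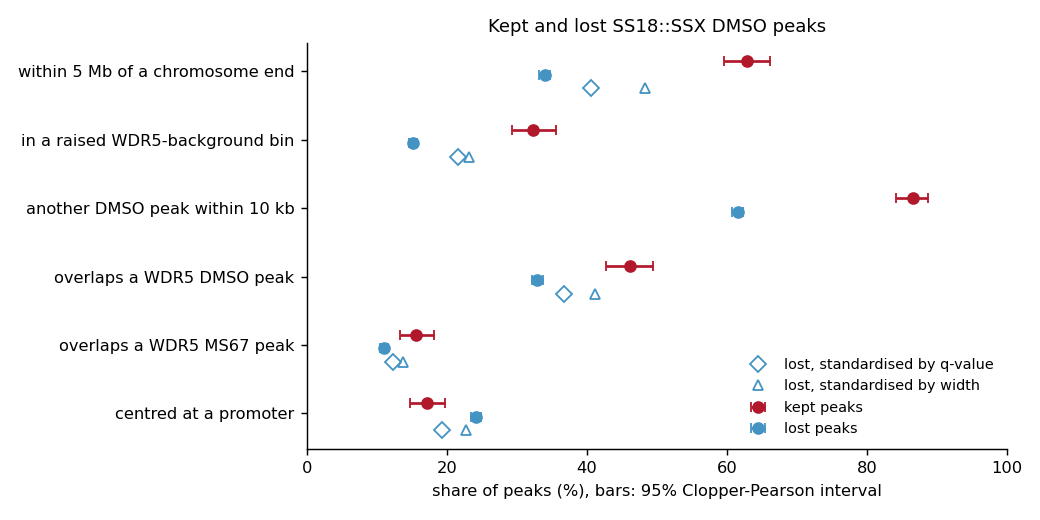
Shares of the kept (red) and lost (blue) SS18::SSX peaks, in percent with 95% Clopper-Pearson intervals, that meet each of 6 descriptions, with open symbols for lost peaks weighted to the q-value or width deciles of the kept peaks (not computed for neighbors). The kept share is the higher one in 5 of the 6, and the promoter share is the lower one, 17.1% against 24.1%.

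Promoters were less frequent among the kept peaks. A promoter was taken as the 1000 bp before and the 100 bp after a start site, and it held the center of 150 kept peaks (17.1%, 95% CI 14.6 to 19.7) and of 3436 lost peaks (24.1%, 95% CI 23.4 to 24.8), with 23.7% of all DMSO peaks. The difference was −7.03 points (95% CI −9.56 to −4.28), but −2.14 points against lost peaks weighted by −log10 q, and it turned to 1.639 points (95% CI −2.97 to 6.58) when the DMSO list was reduced to its 1175 peaks of highest −log10 q. The share kept was 4.18% for promoter, 6.43% for exonic (88 of 1368), 5.64% for intronic (339 of 6011), and 7.23% for intergenic peaks (302 of 4176). At kept promoter peaks the median background was 9.15 times coverage, against 17.1 times at the other kept peaks. The height ratio of MS67 to DMSO had a median of 0.662 at kept promoters and 0.715 elsewhere.

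Counted by gene, 146 of the 3586 genes with a DMSO peak at a promoter had such a peak kept (4.07%). In 9 lists of developmental transcription factors, 4 of 49 genes with a promoter peak kept 1 (8.16%, 95% CI 2.27 to 19.6). These were *FOXI2* among 10 forkhead genes, *PAX5* among 5 PAX genes, *TBXT* among 6 T-box genes, and *IRX4* of the 2 Iroquois genes. None of the 13 HOX genes with a promoter peak kept it, which allows a share of up to 23.1%, nor did any of the 4 SOX, 4 LIM homeobox, 3 sine oculis and EYA, and 2 NKX genes. The antisense genes *HOXA-AS3* and *SOX9-AS1*, picked after their values were seen, were outside these lists. Each had a kept promoter peak, with 35 fragments in both libraries at *HOXA-AS3* and with 23 and 38 at *SOX9-AS1*. *WNT3A* was the only one kept of 11 WNT and Frizzled genes, and none of 6 FGF genes was. The interval for the transcription factors holds the 4.07% of all genes. With promoters widened to 2500 bp on each side, 12 of 102 genes of these 9 lists had a kept peak (11.8%, 95% CI 6.23 to 19.6), against 6.75% of all genes, which this interval holds as well. The lists without a kept peak at the narrower promoter then had *HOXA4* of 22 HOX genes, *SOX8* and *SOX14* of 15 SOX genes, *LHX3* of 8 LIM homeobox genes, and *NKX1-1* and *NKX3-2* of 9 NKX genes, and still none of 5 sine oculis and EYA genes. *FZD9*, *WNT7B*, and *FGF3* were added among the signaling genes.

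At these promoters, the fragment numbers of both libraries were similar, with height ratios from 0.644 to 1.03. *TBXT*, which encodes the mesoderm factor brachyury, had 24 fragments with DMSO and 31 with MS67, a height ratio of 0.948 (chr6:166168810-166169685). *PAX5*, a B cell lineage factor gene, kept 2 of 5 promoter peaks, with 32 and 45 fragments (chr9:37025916-37026467) and with 40 and 47 (chr9:37034869-37035547). *IRX4*, a heart ventricle homeobox gene, had 90 and 79 fragments (chr5:1887725-1888478), a height ratio of 0.644 on a background of 52.0 and 50.9 times coverage. *FOXI2* had 11 and 13 fragments (chr10:127736817-127736986), and *WNT3A*, a ligand of the canonical WNT pathway, had 21 and 23 (chr1:228006116-228006369). The DMSO −log10 q was 2.88 at *FOXI2*, 2.78 at *WNT3A*, and 2.84 at the first *PAX5* peak. These were weak calls that do not pass the study's limit of 3. It was 4.35 at *TBXT*, 7.29 at the second *PAX5* peak, and 14.9 at *IRX4*. Of these 6 peaks, those of *IRX4* and *TBXT* lay within 5 Mb of a chromosome end.

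At the promoter as defined above, no gene of the ribosomal and chromatin lists kept a peak. None of the 30 cytosolic ribosomal protein, mitochondrial ribosomal protein, and translation factor genes with a DMSO promoter peak kept it, which allows up to 10.0%. The same held for 17 genes of the SWI/SNF, Polycomb, and KMT2 lists, which allows up to 17.6%, for 60 zinc finger genes with symbols of the KRAB type, which allows up to 5.0%, and for 6 genes of the p53 pathway and 5 of the cell cycle. These limits all lie above the 4.07% of all genes, so a lower share was not detectable. With an MS67 peak within 1 kb in place of an overlap, 6.19% of all genes had a kept promoter, *RPL7* among them. With promoters of 2500 bp on each side, 1 of 44 ribosomal and translation factor genes (*RPL7*) and 1 of 86 zinc finger genes (*ZNF707*) had a kept peak, and none of 24 genes of the chromatin lists did.

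Among the genes that the study named, the kept peaks lay beside the promoter rather than at it. *MNX1*, a motor neuron and pancreas homeobox gene, was nearest to 2 DMSO peaks, of which the one in its exon, 735 bp from a start site, was kept with 56 fragments with DMSO and 68 with MS67 (chr7:157008206-157008474). *SIM2*, which encodes a bHLH factor, was nearest to 5, of which the one 1246 bp upstream was kept with 68 and 84 fragments (chr21:36697241-36698496). Their height ratios were 0.891 and 0.906, above the median of 0.705 of all kept peaks. All 4 peaks nearest to *SOX8*, an SRY-box factor gene, and all 3 nearest to *NTSR1*, a neurotensin receptor gene, were lost. A kept peak at the promoter of the adjacent noncoding gene *CEROX1*, with 38 fragments with DMSO and 33 with MS67 (chr16:979399-980121), nevertheless lay within 2500 bp of the *SOX8* start site. Both peaks nearest to *CDKN1A*, the p21 gene, and both nearest to *RPL35*, a ribosomal protein gene, were lost, as was the promoter peak of *RPL7*, another ribosomal protein gene. As only 5.81% of all DMSO peaks were kept, the loss of a few peaks was the usual outcome. With 2500 bp on each side of the start site, 4 of 8 of the named genes with a peak had a kept one, namely *MNX1*, *SIM2*, *SOX8*, and *RPL7*. The share of all genes at this promoter width, given above with the transcription factor lists, was far lower, but 8 genes are few. The peak for *RPL7* lay at the promoter of the neighboring *RDH10*, a retinol dehydrogenase gene, and had 17 fragments with DMSO and 26 with MS67.

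The other kept promoters named here were chosen after their values were seen. *PRPH*, which encodes the neuronal intermediate filament peripherin, had 37 fragments with DMSO and 15 with MS67, a height ratio of 0.297 (chr12:49295924-49296733). *CYP26A1*, which encodes an enzyme that breaks down retinoic acid, had 77 and 58 fragments (chr10:93072547-93073644) and WDR5 peaks in both WDR5 libraries. *NGFR*, the low-affinity neurotrophin receptor gene, kept both of its promoter peaks, with 28 and 20 fragments in the first and 17 and 17 in the second. *GRIN1*, which encodes an NMDA receptor subunit, kept 3 of 6 promoter peaks, and the highest of them had 75 and 52 fragments (chr9:137164912-137165474). *CDX2*, an intestinal homeobox gene, had 37 and 63 fragments, a height ratio of 1.25 (chr13:27967247-27968073). *SHOX2*, a homeobox gene of limb and heart, shared its peak of 24 and 36 fragments with *RSRC1* (chr3:158106879-158107463), at a ratio of 1.1. The height ratios of kept promoter peaks thus ran from 0.286 at *TPSB2* to 1.32 at the weaker of 2 kept peaks of *TTC32*. That peak had 15 fragments with DMSO and the stronger one 33. Both were matched to the same MS67 value of 27 fragments, and the ratio of the stronger one was 0.600.

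In sequence the kept and lost peaks were close. The 300 bp about the summit had a median G and C content of 61.7% at kept and 59.3% at lost peaks, a difference of 2.33 points (95% CI 1.86 to 3.0). Within 5 Mb of the chromosome ends the medians were 63.0% and 62.7%, and against lost peaks weighted by width decile the difference turned to −0.333 points. The CpG observed over expected ratio had a median of 0.352 at kept and 0.351 at lost peaks, so neither class was typical of CpG islands. In the 1000 bp about the summit, at least 10% of the 12-mers were repeated at 73 kept peaks (8.30%) and 648 lost peaks (4.54%). Repetitive sequence was thus more frequent among the kept peaks, but most of them did not have it.

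Short motifs were searched on both strands of the same 300 bp. CCAAT was present at 23.3% of kept peaks (95% CI 20.6 to 26.3), 26.7% of lost peaks, and 34.6% of the 300-bp RefSeq promoters. The GC box GGGCGG was present at 27.3%, 27.8%, and 45.0%, the E-box CACGTG at 6.26%, 6.91%, and 7.26%, and the AP-1 type motif TGANTCA at 5.46%, 6.46%, and 7.71%. The intervals of the differences between kept and lost peaks held 0 for the GC box, the E-box, and the AP-1 type motif. For CCAAT the difference was −3.41 points (95% CI −6.26 to −0.379), and it turned to 0.883 points by width decile and to 1.26 points within 5 Mb of the chromosome ends. The longer motifs known for NRF1, ZBTB33, and CTCF were found at 0 kept peaks, which allows up to 0.341%, and at 25, 2, and 4 lost peaks.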

How the data were processed

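SS18::SSX and WDR5 were profiled by CUT&RUN in HSSY II cells, with 1 library for each antibody and treatment. The authors aligned the reads to hg38, and to mm10 for the spike-in, with Bowtie2, removed secondary alignments and duplicate reads, and called peaks in each library on its own with MACS2. The submitters' processing notes list SAMtools 1.9, bedtools 2.28.0, deepTools 3.3.0, and Picard as well. Command-line options of the peak caller and any control library are not given in the sources used here. For a comparison of peak sets the study states a limit of −log10 q above 3 and fold above 3 for SS18::SSX, which the deposited lists do not apply. It is 1 of the alternatives here. The values the authors deposited per peak are a fold enrichment, which is the ratio of summit to local background, and −log10 values of p and q.

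From the definitions MACS2 uses for the fold and for the Poisson p-value, the whole number of fragments at the summit and the background were solved for 100% of the peaks, with a tolerance of 0.001 in −log10 p. This step was checked on simulated peaks. Genome coverage, which stands for depth, was read from the smallest background found among the peaks of a library, and total reads were not analysed here. Peaks were assigned to the protein-coding and long noncoding genes of GENCODE 44 on hg38 by their center, with promoters before exons and exons before introns. Sequences of peaks were read from hg38 and promoters for the motif shares from RefSeq. Shares have Clopper-Pearson intervals at 95%, differences of shares have square-and-add intervals, and medians have order-statistic intervals. Lost peaks were also weighted to the −log10 q or width deciles of the kept peaks, without an interval. The alternatives were other overlap rules, stricter, merged, or fewer peaks, other promoter, bin, and neighbor limits, and splits by position.

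The kept peaks and the gene lists were chosen with earlier results of these data known, so no list is independent evidence. The genes named were those nearest to the 10 kept peaks of highest −log10 q in each SS18::SSX library, to most kept peaks, to the highest kept peak of the 5 fullest bins, and to the 5 lost peaks of highest −log10 q, as well as listed genes that kept a promoter peak and genes the study named, and a gene chosen after its values were seen is marked as such. Results at 1 locus are not reported here. Spike-in counts and other assays were not analysed here. The scripts ran in Python 3.11.15 and used scipy 1.17.1 for statistics, matplotlib 3.10.9 for plots, and pandas 2.3.3 with numpy 2.4.6 for tables.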

Additional observations from a re-analysis of the deposited data

How the results depend on the processing

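Differences are kept minus lost peaks in percentage points, the background ratio is that of the medians, and the height ratio is MS67 over DMSO at kept peaks. Values that moved by more than their counting interval are given by setting. When at least 50% of the DMSO peak had to be covered, the kept share was 2.91%, the background ratio 2.33, the neighbor difference 22.4, the G and C difference 0.833, the chromosome-end difference 22.3, and the height ratio 0.757. With an MS67 peak within 1 kb counted as an overlap, the kept share was 10.3%, the WDR5 DMSO difference 8.74, the neighbor difference 30.04, the height ratio 0.753, and the kept share of promoter genes 6.19%. With the DMSO summit required to lie inside an MS67 peak, the kept share was 3.94%. Among peaks with −log10 q above 3 and fold above 3, the limit the study states for SS18::SSX peaks, the kept share was 3.41%, the promoter difference −1.11, the WDR5 DMSO difference 20.5, the WDR5 MS67 difference 7.55, the raised-bin difference 8.05, the background ratio 1.48, the neighbor difference 19.8, and the chromosome-end difference 23.5. Among peaks with −log10 q above 5, the kept share was 4.60%, the WDR5 MS67 difference 9.18, the raised-bin difference 22.3, the background ratio 1.93, and the height ratio 0.734. With peaks within 1 kb merged, the kept share was 6.67%, the WDR5 DMSO difference 24.6, the WDR5 MS67 difference 9.96, the background ratio 3.27, the G and C difference 3.67, the chromosome-end difference 32.9, and the height ratio 0.676. With the DMSO list reduced to 1175 peaks, the kept share was 30.6%, the promoter difference 1.639 (reversed), the WDR5 DMSO difference 8.28, the raised-bin difference 10.2, the background ratio 1.596, the neighbor difference 8.09, the G and C difference 3.67, the chromosome-end difference 24.9, and the height ratio 0.597. Without the 100 raised bins, the kept share was 4.68%, the background ratio 2.33, and the chromosome-end difference 23.8. Against lost peaks weighted by −log10 q, the promoter difference was −2.14, the WDR5 DMSO difference 9.42, the raised-bin difference 10.7, and the chromosome-end difference 22.4. Against lost peaks weighted by width, the WDR5 DMSO difference was 4.91, the WDR5 MS67 difference 1.85, the raised-bin difference 9.17, the G and C difference −0.333 (reversed), the chromosome-end difference 14.6, and the CCAAT difference 0.883 (reversed). Within 5 Mb of a chromosome end, the promoter difference was −3.91, the raised-bin difference 13.5, the background ratio 1.65, the G and C difference 0.333, and the CCAAT difference 1.26 (reversed). Over 5 Mb from a chromosome end, the WDR5 DMSO difference was 21.8, the WDR5 MS67 difference 8.96, the raised-bin difference 4.33, and the background ratio 1.88. With promoters of 2500 bp on each side, the promoter difference was −2.74, and the kept share of promoter genes 6.75%. With 50 raised bins, the raised-bin difference was 11.5. With neighbors within 5 kb, the neighbor difference was 28.5. With the SS18::SSX summit inside the WDR5 peak, the WDR5 DMSO difference was 5.26, and the WDR5 MS67 difference −1.16 (reversed). The kept share moved with every setting tried, from 2.91% to 30.6%. The chromosome-end, raised-bin, neighbor, and WDR5 DMSO differences and the background ratio kept their direction under all settings applied to them. The neighbor difference and the background ratio were not weighted by −log10 q or width, and the neighbor difference was not split at 5 Mb. The promoter, WDR5 MS67, G and C, and CCAAT differences did not keep their direction, and for these the cause was not tested. Of the values for single motifs, CpG ratio, repeats, kept neighbors, and WDR5 at shared sites, 13 planned and 6 added ones moved, and 68 and 31 stayed within their interval. Among those that moved, the GC box difference ran from −5.92 to 5.402. No paired analysis was possible because each condition had 1 library, and for the same reason no replicate could be left out. A lost peak is one not called with MS67, not one shown to be empty, and a weak peak has fewer fragments to be called on. The soft-masked share planned for the sequence comparison could not be computed, as the reference carries no soft mask, and repeated 12-mers took its place. The chromosome-end comparison, the split at 5 Mb, the weighting by width, and the requirement on WDR5 summits were added after the data were seen.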
